A study of Mus musculus with 24 samples.

Results

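The ribosomal protein genes were followed in single liver-resident invariant natural killer T (LiNKT) cells of NOD mice, a strain prone to autoimmune diabetes. Members were all protein-coding genes whose symbol starts with Rpl or Rps and a digit, together with Rplp0, Rplp1, Rplp2 and Rpsa. Kinase genes of the Rps6k family and pseudogenes were left out. This gave 86 of the 21897 protein-coding genes in the count tables, 52 named for the large subunit and its stalk and 34 for the small subunit. Of the 86, 84 held at least 10 counts summed over all cells used, and the other 2, Rpl10l and Rpl3l, held none.

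The untreated group was 3 male NOD mice aged 13 to 15 weeks that received nothing. The treated group was 3 male NOD mice of the same age that received nanoparticles coated with CD1d loaded with the glycolipid α-galactosylceramide (αGalCer/CD1d-NP), intravenously, 2 doses of 20 µg protein per week for 5 weeks. In both groups the cells were sorted singly with αGalCer/CD1d tetramers and read by SmartSeq2, a plate method that sequences full-length RNA without molecular identifiers, so that a count is a read and not a molecule. The mice of a group cannot be told apart in the tables, so each group is 1 sample. No test between the groups was possible. Intervals (95%, exact Poisson for counts and exact binomial for shares of cells) cover counting error only. They take reads and cells as independent, which PCR copies and cells of the same mice are not.

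Ribosomal proteins are the protein part of the ribosome. The small subunit reads the messenger RNA, the large subunit joins the amino acids, and the stalk (Rplp0, Rplp1, Rplp2) draws in the elongation factors. The messenger RNAs of most of them begin with a stretch of cytosine and uracil (C and T in the DNA), the terminal oligopyrimidine tract, through which mTOR and the binding protein Larp1 tie their translation to growth signals. A T cell activated by antigen usually makes more ribosomes before it divides.

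After cells under 10000 counts were set aside (1 untreated, 2 treated), 283 untreated and 280 treated cells were used. Cells held medians of 635995 and 612970 counts on 866 and 857.5 genes, and no cell name occurred in both tables. A single gene annotated as ribosomal RNA took 23.0% of the untreated and 21.6% of the treated counts. Reads on T cell or iNKT markers (10 genes) were present in all untreated cells and in 93.6% of treated cells. Macrophage markers (Lyz2, C1qa, Csf1r) summed to 0.0112 CPM (counts scaled to a total of 1000000) in untreated and 1841 CPM in treated cells, where 5.36% of cells held such reads. Hepatocyte markers stood at 0 and 74.0 CPM, erythroid markers at 0.245 and 486 CPM. Of the plasma cell markers, Jchain and Mzb1 were at 0 in both groups, and Xbp1, which T cells can also express, stood at 409 and 294 CPM, with reads in 17.7% and 14.3% of cells. The endothelial markers stood at 1.02 and 16.7 CPM and B cell markers at 0.0112 and 0.729 CPM. The 18 treated cells without T cell marker reads had a median of 2.31% of counts on ribosomal protein genes, and the share without such cells is given with the comparison of the groups.

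Letters around the annotated first base show how the members differ in the tract. In each line below, 30 bases are printed 5′ to 3′, 15 before the RefSeq start and 15 from it (GRCm38.p6). Capitals mark the unbroken run of C and T that includes the first base. Where a gene has several starts, the one with the longest run is shown. The genes printed are 4 with long runs, among them Rps10, which had hardly any counts, then Rps6, the copies Rps27 and Rps27rt, and Rpl4, the member with most counts.

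Rpl7a (chr2:26910792-26910821, plus strand): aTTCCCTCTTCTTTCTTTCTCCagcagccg

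Rpl35 (chr2:39005117-39005146, minus strand): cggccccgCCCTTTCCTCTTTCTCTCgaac

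Rpl14 (chr9:120571502-120571531, plus strand): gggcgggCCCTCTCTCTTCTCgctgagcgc

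Rps10 (chr17:27635230-27635259, minus strand): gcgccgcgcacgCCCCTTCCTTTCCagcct

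Rps6 (chr4:86857353-86857382, minus strand): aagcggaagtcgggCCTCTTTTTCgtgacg

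Rps27 (chr3:90213634-90213663, minus strand): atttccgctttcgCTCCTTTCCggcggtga

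Rps27rt (chr9:114982725-114982754, minus strand): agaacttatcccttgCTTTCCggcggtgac

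Rpl4 (chr9:64173372-64173401, plus strand): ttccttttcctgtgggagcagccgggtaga

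The table of promoters holds 78 starts of 66 members. A run of at least 5 bases of C or T lay over the first base in 21 of the 78 (26.9%), and in 10.1% of all 32851 promoters. The longest, 21 bases, was that of Rpl7a. Rpl4 has none at its RefSeq start. An annotated start a few bases off can hide such a run, so no match here says nothing about the tract itself. Within the 300 bases from 250 before to 50 after the start, the letters CCGGAAG, read on both strands, occurred in 34.6% of member promoters and 8.86% of all promoters. CTTTCC occurred in 51.3% and 26.6%. TATAAA occurred in 8.97% and 13.6%.

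Counts of the members spread over several orders of magnitude. Rpl4 led with 2065 CPM in untreated cells (2059 to 2072) and 2383 in treated cells (2376 to 2391). Rplp0, the base of the stalk, had 1613 and 1580 CPM. Rps3, which lines the entry of the messenger RNA, had 1363 and 1130 CPM. Others among the 10 most abundant were Rps14 (1288 and 1033 CPM), Rpl13 (963 and 767) and Rps9 (902 and 693), then Rps2 (825 and 734), Rpsa (658 and 769) and Rpl7 (615 and 598). The 10 most abundant members together made up 44.9% of the ribosomal protein counts in untreated and 46.5% in treated cells. Per kilobase of exon, with both groups pooled, Rpl4 (1105 CPM per kb) and Rplp0 (963) again led, and Rpl36 (581), Rps27 (492) and Rps14 (487) were also high. The order of the members hardly differed between the groups (Spearman's rho of 0.989 over the 86 genes, given as a description). Among the 78 members with at least 1000 counts in both groups, the Poisson interval of the CPM was at most 6.17% wide on either side.

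Reads on a given member were missing from many cells. Rps27 reached 99.3% of the untreated cells and 94.6% of the treated ones, the highest share of any member in both groups. Over the 86 members the median was 53.4% of untreated and 50.2% of treated cells. At the median well detected member (500 or more counts, and reads found in 20% or more of the cells of either group), the 10 highest cells held 21.1% of the untreated and 21.6% of the treated counts, although 10 cells are 3.53% and 3.57% of all.

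Outside the paralogs, 6 members lay under 10 CPM over both groups. They were Rpl35 (9.67 CPM untreated and 9.65 treated), Rpl29 (9.99 and 8.95), Rpl13a (8.65 and 4.70), Rpl23a (3.78 and 3.66), Rpl24 (1.19 and 1.19) and Rps10. For Rps10, a protein at the head of the small subunit, no count was listed in untreated cells and 23 in treated cells, or 0.139 CPM. The counts of Rpl24 came almost wholly from 1 cell of each group, which held 86.0% of the untreated and 98.0% of the treated ones. Rpl35, in contrast, had reads in 55.8% of untreated and 57.9% of treated cells. In 5 of the 6, all but Rpl29, at least 20% of the exon bases are shared with another annotated gene. For Rps10 it was 28.7%, with the read-through gene RPS10-NUDT3 on the same strand and the antisense gene Gm15420, both without a count. For Rpl24 it was 47.0%, with Gm28037, which also had no count. For Rpl35 it was 66.2%, in part with Arpc5l on the other strand, which had 228 CPM in both groups. For Rpl29, 76.8% of the 75-base windows of its messenger RNA occur elsewhere in the genome. In Rpl13 and Rps6, which had more counts, such windows make up 86.0% and 94.5%. Over 84 members the share of such windows and CPM per kb had a Spearman's rho of 0.05 (a description). Over all members, the 12 with at least 20% of exon bases shared had a median of 7.56 CPM per kb, against 95.1 in the other 74. The rule by which the authors' counting treated reads that fall on several genes or places is not given in the sources used here, and its part in these low values was not tested.

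The chromatin at the starts of the same genes was read from the multiome fragments of a separate sort, pooled over untreated and treated male mice, whose barcode endings 1 and 2 are assigned to no group here. Insertions were scaled to 1000000 insertions of each ending. Within 2 kb on either side of the annotated gene start, members had a median of 51.6 scaled insertions (ending 1) and 49.0 (ending 2). Over all 22028 protein-coding genes the medians were 6.07 and 6.66. Of the 86 members, 82 lay over the median of all genes and 65 over its upper quartile. The median member had 63.4% of its insertions within 250 bases of the start, against 28.0% over all genes.

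Of the members with few counts, Rps10 had 37.9 and 36.4 scaled insertions in this window, Rpl24 30.6 and 27.1, Rpl13a 92.7 and 90.7, and Rpl23a 33.9 and 31.2. For Rps10 only 0.301 and 0.458 lay within 250 bases of the gene start, which is the outermost one in the annotation. The RefSeq start printed above lies 1425 bases away, and its 300-base promoter held 23.2 and 22.4. In 9 of 66 members even the nearest RefSeq start lay over 250 bases from the gene start. At RefSeq promoters, Rpl35 had 17.2 and 16.4 scaled insertions, Rpl13a 51.5 and 48.1, and Rpl24 7.07 and 6.28. The medians were 22.9 and 22.2 over the 78 member promoters and 0.116 and 0.149 over all 32851. The low counts of Rps10, Rpl35, Rpl13a and Rpl24 stood beside promoters with more insertions than the median of all 32851. Rpl35 and Rpl24 lay under the median of the member promoters. The median of all promoters is a low bar. The 300-base promoters of Rpl3l, a member without a count, also lay over it (0.168 and 0.155 at one start, 0.208 and 0.198 at the other).

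**Figure D1:**
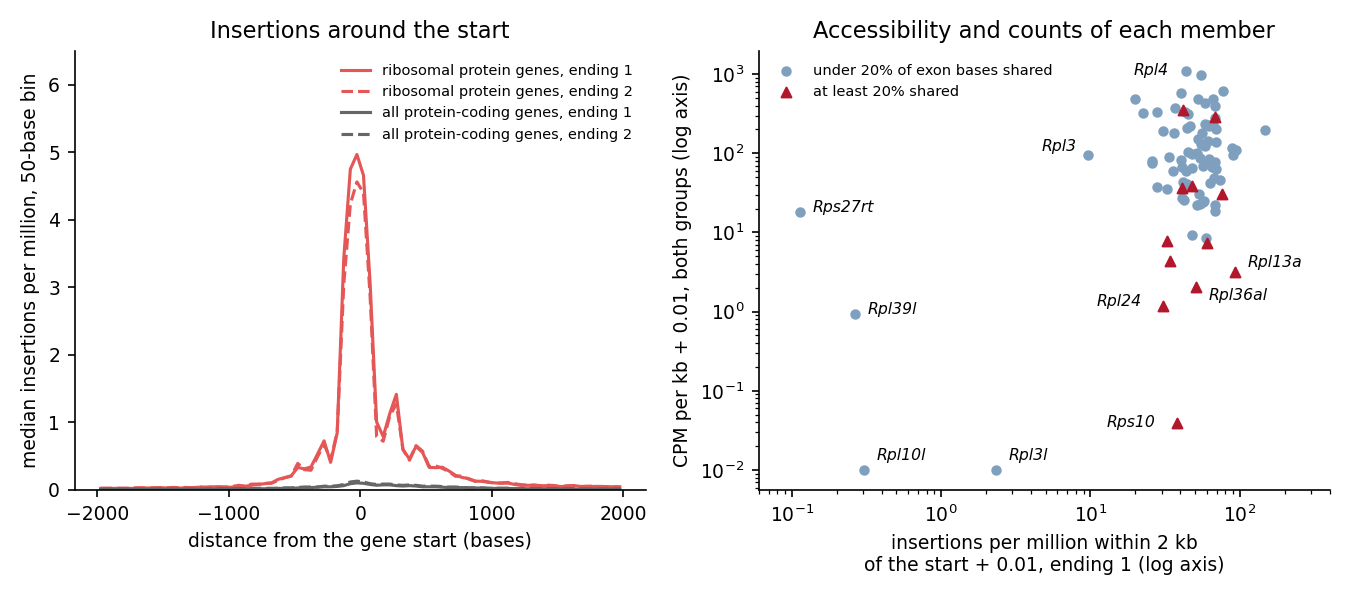
Left, the median number of insertions, scaled to 1000000, in 50-base bins by distance from the gene start, for the 86 ribosomal protein genes and all 22028 protein-coding genes, by barcode ending. Right, CPM per kb of each member (both groups pooled) against the scaled insertions within 2 kb of its start (ending 1), with 0.01 added to both and on log axes, with triangles for the 12 members that share at least 20% of exon bases with another gene. Rps10 and Rpl24 lie far below the bulk at a similar number of insertions, and Rps27rt, Rpl39l, Rpl10l and Rpl3l lie to the left.

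The exceptions were the 4 members under the median of all genes: Rpl3l (2.31 and 2.78 scaled insertions within 2 kb), Rpl39l (0.255 and 0.464), Rpl10l (0.295 and 0.235) and Rps27rt (0.104 and 0.180). Rpl3l, Rpl10l and Rpl39l are known from striated muscle and testis. Rpl3l and Rpl10l had no count here, and the 268 counts of Rpl39l came from 1 treated cell. Rps27rt, a retrotransposed copy of Rps27, had only 7.19 and 6.18 CPM, but reads in 89.8% of untreated and 80.4% of treated cells, and at most 31 reads in any cell. Of its 75-base windows, 87.7% occur elsewhere in the genome, as do 99.6% of those of Rps27. How reads on both were counted is not known, so the values of Rps27rt and Rps27 are uncertain. The same limit holds for other members with many such windows, such as Rpl9 (93.1%).

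Of the other paralogs, Rps27l, a p53 target close to Rps27, had 82.5 CPM in untreated and 58.6 in treated cells. Rpl22l1, the partner and antagonist of Rpl22, had 50.9 and 38.0 CPM, but the highest cell of each group held 24.4% and 33.6% of these counts. Rpl7l1 had 145 and 143 CPM from 11.3% and 8.93% of cells, and its ratio pointed to opposite sides in the cells with number 1 and number 2 in their names (log2 ratio of -0.56 and 1.58). Rps19bp1 meets the naming rule but encodes a protein that binds Rps19 and is no subunit. It fell by 1.49 on the log2 scale between the groups (43.3 to 14.8 CPM), from 18 untreated and 9 treated cells.

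Summed over all members, ribosomal protein genes took 2.54% of the untreated and 2.30% of the treated counts. This is 25411 CPM (25388 to 25434) and 22971 CPM (22948 to 22994), a log2 ratio of treated over untreated of -0.15, or 0.904-fold. The small subunit went from 11590 to 10092 CPM (log2 ratio of -0.20) and the large subunit from 13821 to 12879 (-0.10). Of the counts on protein-coding genes alone, the share was 3.44% and 3.05%. The Poisson intervals of the groups do not overlap, but they treat reads as independent, PCR copies included. With 1 sample per group there is no measure of the spread between mice.

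The difference was small beside the spread between cells. In untreated cells the share of counts on ribosomal protein genes ran from 0.838% to 6.55%, with a median of 2.40% and quartiles of 1.89% and 3.15%. In treated cells it ran from 0.128% to 6.13%, with a median of 2.23% and quartiles of 1.75% and 2.77%. The medians differed by 0.17 percentage points and the groups overlapped over most of their range: 58.6% of treated cells lay under the untreated median, 6 treated cells under the lowest untreated cell, and 0 over the highest. Cell names carry the number 1 or 2 as their second part. In cells numbered 1 (190 untreated, 187 treated) the medians were 2.53% and 2.27%, in those numbered 2 (93 and 93) they were 2.19% and 2.17%. The summed ratio was -0.20 and -0.04, respectively. The difference was larger in the cells numbered 1. What the number stands for is not given in the sources used here. Without the treated and untreated cells that lack T cell marker reads or hold at least 10 counts of hepatocyte, B cell, macrophage, endothelial and erythroid markers (281 and 243 cells left; plasma cell markers were not used for this), the medians differed by 0.24 points. Within a cell the shares of the large and small subunits went together in part (Spearman's rho of 0.51 over 283 untreated and 0.53 over 280 treated cells, a description, since both shares come from 1 library).

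Untreated cells had reads on a median of 45 members and treated cells on 42; at 100000 counts per cell, with 3 and 8 shallower cells left out, it was 43 and 40.

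**Figure D2:**
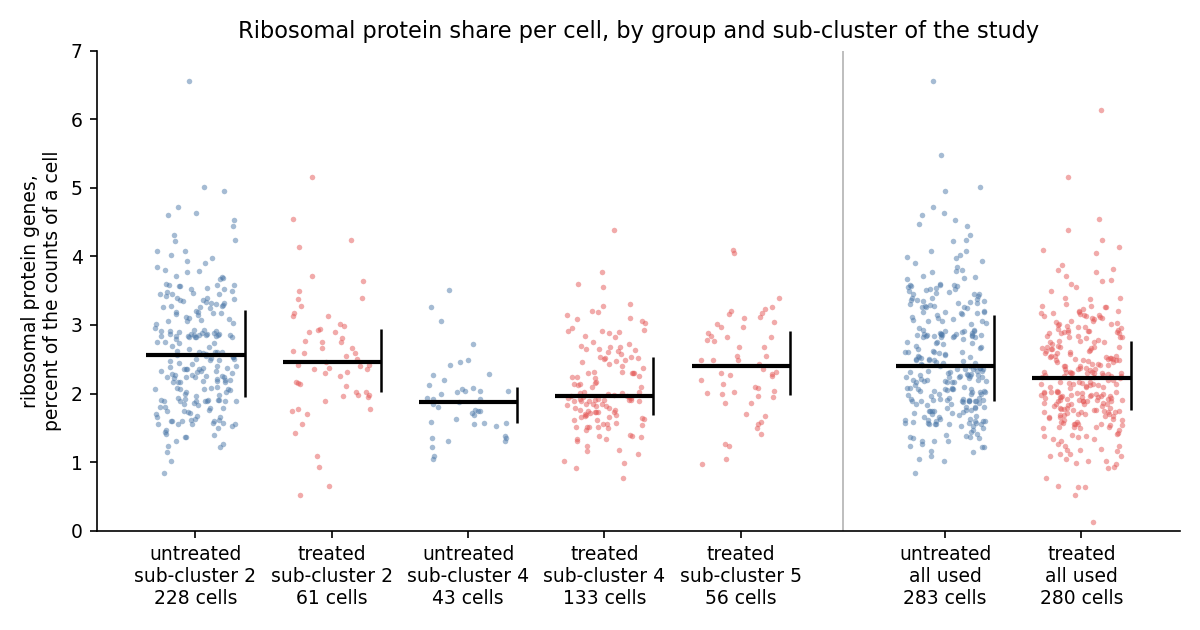
Share of each cell's counts on ribosomal protein genes, in percent, by group and by the sub-cluster the study gave the cell (left) and over all cells used (right). Each point is a cell, thick lines are medians and thin lines the quartiles; the medians are near 2.5% in sub-cluster 2 and near 1.9% in sub-cluster 4 in both groups.

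By sub-cluster, the share was lowest in sub-cluster 4 in both groups. The study gave most cells a sub-cluster from their RNA, so these are values of sets that the same counts helped to define. Sub-cluster 2 held 228 of the untreated and 61 of the treated cells used, sub-cluster 4 held 43 and 133, and sub-cluster 5, the cells of the regulatory type LiNKTR1, 56 treated cells. In sub-cluster 2 the median share was 2.56% in untreated and 2.47% in treated cells. In sub-cluster 4 it was 1.87% and 1.96%. Sub-cluster 5 had a median of 2.40%. Treated cells thus lay under the untreated ones in sub-cluster 2 and over them in sub-cluster 4. Sub-cluster 4 held 47.5% of the treated and 15.2% of the untreated cells, and the part of this in the lower treated share was not tested.

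Gene by gene, most members were lower in treated cells, by less than 2-fold. Past 2-fold (log2 ratio of summed CPM with 1 CPM added to both, among genes with at least 10 counts) lay 1 member upward, where 20.1% of all 15484 genes lay, and 2 downward, against 15.9%. The 1 upward was Rpl39l, with its single cell, and the 2 downward were Rps19bp1 and Rpl36al, all from the list of paralogs. None of the other 77 members was past 2-fold. By any amount, 65 of 84 members were lower in treated cells, against 47.1% of all genes. In cells numbered 1 it was 70 members and in cells numbered 2 it was 49, and the share of all genes is not given for these. Among well detected genes 61 of 78 members were lower, against 50.6% of 973 genes. The median log2 ratio was -0.21 for the members (quartiles of -0.33 and -0.02). Over all 973 it was -0.01 (quartiles of -0.25 and 0.23), so small ratios were common to well detected genes. Reads were found in a smaller share of treated than untreated cells for 68 of 78 members, against 60.9% of genes. A gene can be well detected through a single group, as Rpl36al, Rps27l and Rpl22l1 were through untreated cells. The filter favours a lower treated value in such genes, and all 973 genes passed the same filter. Within sub-cluster 2, 52 of 78 well detected members were lower in treated cells, against 59.5% of genes, with medians of -0.14 for the members and -0.15 for all genes. Within sub-cluster 4 it was 29 of 74, against 49.1%, with medians of 0.11 and 0.01.

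**Figure D3:**
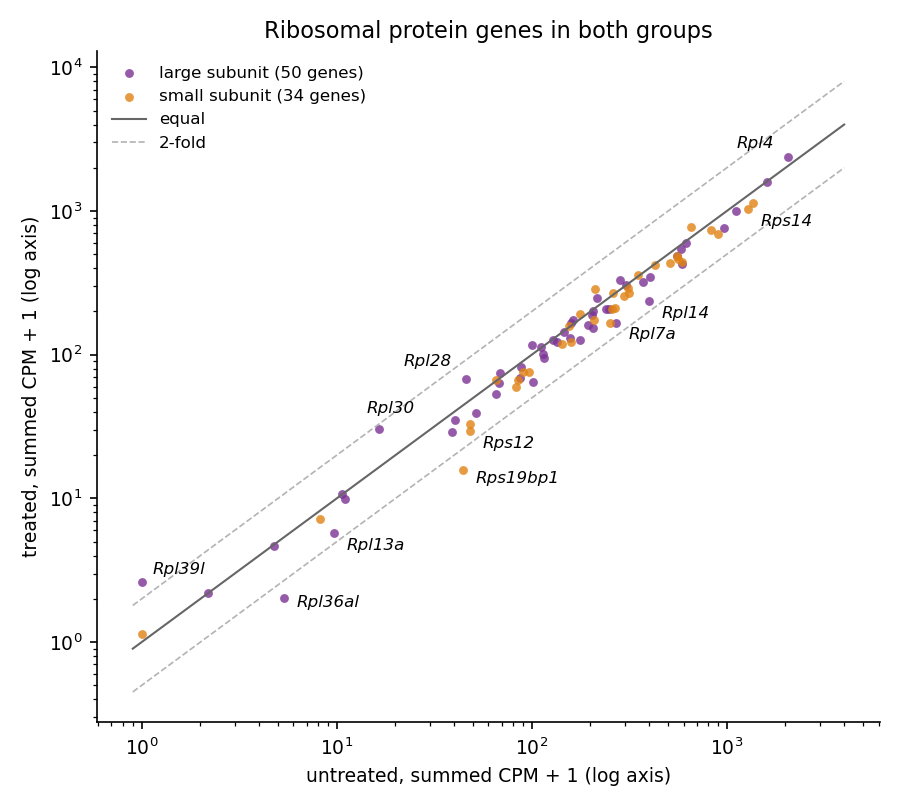
Summed CPM of the 84 members with at least 10 counts in untreated (horizontal) and treated cells (vertical), with 1 CPM added, on log axes. The solid line is equality and the dashed lines 2-fold; most points lie just under equality, and Rpl39l, Rps19bp1 and Rpl36al lie past the dashed lines.

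At the lower end among the well detected members was Rpl36al, at 4.35 CPM in untreated and 1.02 in treated cells (log2 ratio of -1.41). It had reads in 22.6% of untreated and 16.4% of treated cells. It was thus well detected only through the group where it was higher, and its direction is no independent result. One untreated cell held 47.9% of its untreated counts, and without the highest cell of each group the ratio was -0.75. By number in the cell names it was -1.86 in cells numbered 1 and 0.049 in cells numbered 2, so that its lower value rested on the cells numbered 1. The next were subunits with reads in more cells or more counts. Rpl14 stood at 398 CPM (395 to 401) and 234 CPM (231 to 236), a log2 ratio of -0.76 that was -0.77 without the highest cells. Rps12 had 47.3 and 28.5 CPM (-0.71), Rpl7a 271 and 166 CPM (-0.70), and Rpl12, a protein at the base of the stalk, 99.9 and 63.2 CPM (-0.65). By number in the cell names, Rpl14 gave -0.85 and -0.60, Rpl7a -0.67 and -0.74, and Rps12 -0.49 and -1.17, each lower in both sets of cells. Rpl12 gave -0.97 and 0.13, and was lower only in the cells numbered 1.

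At the upper end was Rpl30, at 15.6 CPM in untreated and 29.3 in treated cells (log2 ratio of 0.87). A single treated cell held 38.3% of its treated counts, and without the highest cells the values were 14.9 and 18.1 CPM and the ratio 0.26. Rpl28 followed with 45.2 and 67.2 CPM (0.56; 0.25 and 1.01 by number in the cell names). Rpl3, at the catalytic centre, had 281 and 331 CPM (0.23), but reads in 48.4% of untreated and 41.4% of treated cells. Rpsa, which besides its place in the small subunit is known as the laminin receptor, had 658 and 769 CPM (0.22).

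The stalk proteins Rplp0, Rplp1 and Rplp2 had log2 ratios of -0.03, -0.10 and -0.28; that of Rplp0 was -0.19 and 0.31 by number in the cell names. Rps6, the substrate of the S6 kinases, went from 267 to 211 CPM (-0.34), and was found in 64.7% of untreated (58.8 to 70.2) and 52.1% of treated cells (46.1 to 58.1). A lower share of treated cells with reads was common to 68 of the 78 well detected members and to 60.9% of well detected genes. Rps27a, made as a fusion with ubiquitin, had 295 and 254 CPM (-0.22), but the ratio was 0.061 when CPM was averaged over cells. Rpl5 and Rpl11, which bind Mdm2 when ribosome assembly fails, had 157 and 130 CPM (-0.27) and 157 and 166 CPM (0.08). Rpl10, which closes the assembly of the large subunit, had 401 and 345 CPM (-0.22). Rpl22, needed by developing αβ T cells, had 67.8 and 73.3 CPM (0.11), and its ratio was -0.12 and 0.56 by number in the cell names. One untreated cell held 23.5% of its untreated counts, and without the highest cells the ratio was 0.42.

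Il10 and Il21, which encode cytokines, and Lag3, which encodes an inhibitory receptor, are genes of the LiNKTR1 type. At least 10 counts of any of the 3 were found in 82 of 280 treated cells (29.3%, 24.02 to 34.99) and in 0 of 283 untreated cells, which allows a share of up to 1.06% as a one-sided limit (3 cells of 283), while the exact interval, which is two-sided, ends at 1.30%. Il10 passed in 38 treated cells, Il21 in 31 and Lag3 in 64. In the 82 cells the share of counts on ribosomal protein genes ran from 0.644% to 4.24% with a median of 2.30%. In the other 198 treated cells it ran from 0.128% to 6.13% with a median of 2.15%. The 82 cells thus lay 0.15 points higher, 59.8% of them over the median of the others, and under the untreated median of 2.40%. They also held more genes (medians of 996.5 and 835.5) and more counts (660136 and 590018). Among treated cells with at least the median number of genes, the shares were 2.36% with and 2.30% without these genes; among the rest, 2.15% and 2.01%.

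Taken alone, the genes gave differences in both directions. Cells with Il10 had a median of 2.39% against 2.14% in all other treated cells, and cells with Il21 2.30% against 2.16%. Cells with Lag3 had 2.18% against 2.25%, in the opposite direction. In the 13 cells with all 3, the median was 2.30%. Of the 82 cells, 49 belonged to sub-cluster 5, and within that sub-cluster the 49 had a median of 2.44% and the other 7 cells 2.31%. Within sub-cluster 2 it was 2.37% (14 cells) and 2.51% (47 cells), and within sub-cluster 4 it was 2.03% (7 cells) and 1.96% (126 cells). Most of the 198 other cells were thus in sub-cluster 4, which had the lowest share, and the part of this in the difference was not tested.

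**Figure D4:**
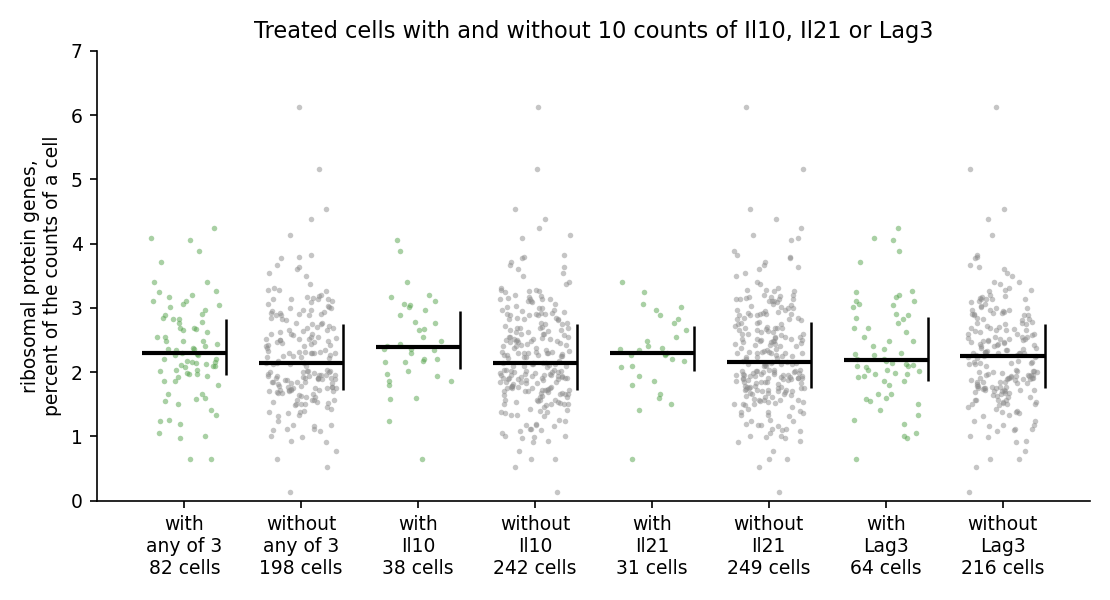
Share of counts on ribosomal protein genes in treated cells with (green) and without (grey) at least 10 counts of any of Il10, Il21 and Lag3, and of each alone. Each point is a cell, thick lines are medians and thin lines quartiles; medians lie between 2.14% and 2.39%, and only for Lag3 is the cells' own median under that of the others.

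Between the 82 and the other 198 treated cells, 0 of 84 members were past 2-fold upward, against 18.9% of 13597 genes, and 3 downward, against 29.6%. The 3 were Rpl12 (75.7 CPM without and 36.8 with, log2 ratio of -1.02), and Rpl24 and Rpl39l, which had 197 and 268 counts in the other cells and none in the 82. Of the well detected members 35 of 76 were lower, against 40.0% of 1044 genes, and their median ratio was 0.02, against 0.11 for all such genes. Members were thus about as often higher as lower. Summed, they took 2.38% of the counts of the 82 cells and 2.26% of those of the others.

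**Figure D5:**
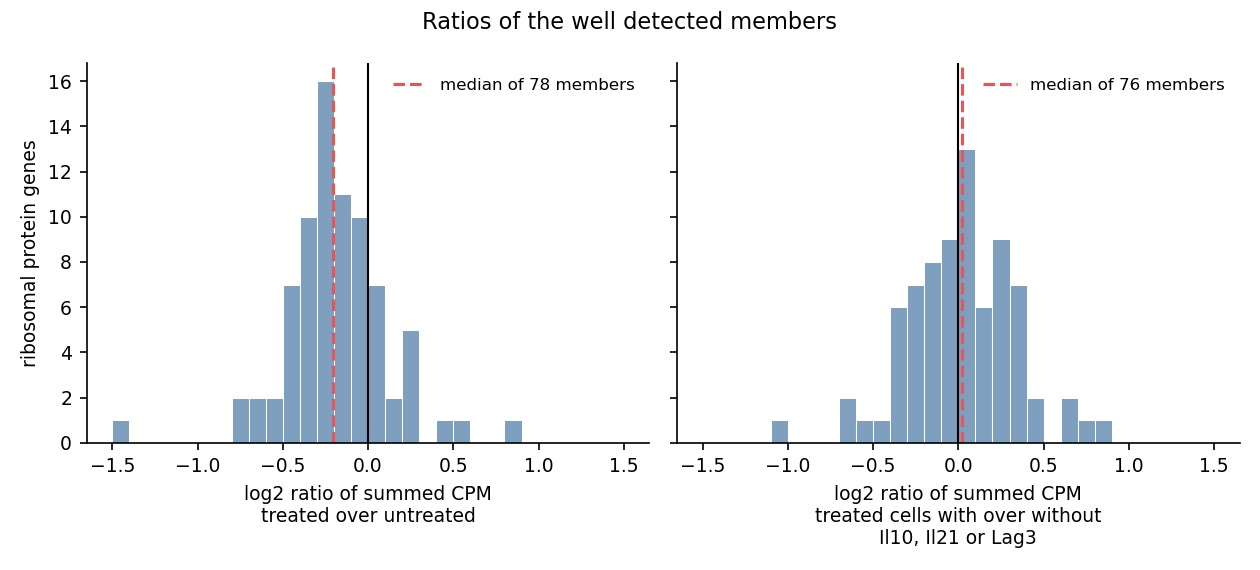
Number of well detected members by log2 ratio of summed CPM, treated over untreated (left, 78 members) and treated cells with over without Il10, Il21 or Lag3 (right, 76 members). Solid lines mark 0 and dashed lines the medians, -0.21 on the left and 0.02 on the right.

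The members that differed most between these cells came from both subunits. Rps27l had 46.0 CPM without and 85.1 with Il10, Il21 or Lag3 (log2 ratio of 0.87), and reads in 15.7% and 28.0% of cells. Rpl9 had 248 and 418 CPM (0.75) from 39.9% and 59.8% of cells. Rpsa had 642 and 1036 CPM (0.69) from 50.5% and 68.3% of cells. Rpl39 had 29.3 and 45.0 CPM (0.60), and Rpl29 7.85 and 11.3 CPM (0.47). These members were picked among the well detected ones. Rps27l and Rpl29 (reads in 17.7% and 31.7% of cells) reached 20% of cells only in the 82. The filter thus favoured members higher in the 82 cells, and the direction of Rps27l and Rpl29 is no independent result. On the other side, Rps24 had 235 and 148 CPM (-0.66) from 62.6% and 51.2% of cells, Rpl37 128 and 89.2 CPM (-0.51), and Rps4x 533 and 382 CPM (-0.48), although reads on Rps4x were in more of the 82 cells (46.3%) than of the others (37.9%). Rpl30 had 33.5 and 20.5 CPM (-0.68), and 0.10 without the highest cell on either side, so that 1 cell set its direction. For the other 9 named here with values, Rpl12 included, leaving out these cells kept the direction.

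Other genes of protein synthesis are read against the same 20.1% of all genes past 2-fold upward and 15.9% downward. Of 7 genes of elongation (Tpt1 and Eif5a included), 0 were past 2-fold and 5 were lower, with a median log2 ratio of -0.18 and a sum of 10412 CPM in untreated and 9734 in treated cells. Eef1a1, which brings the aminoacyl-tRNA, made up most of it (6737 and 6578 CPM); Eef1b2 (-0.51), Eef1g (-0.50), Eif5a (-0.32) and Eef2 (-0.18) were lower and Eef1d (0.26) and Tpt1 (0.23) higher. Of 29 initiation factor genes, 4 were past 2-fold upward and 0 downward, with a median of 0.10; Eif1 had 508 and 471 CPM, Eif4a2 362 and 317, and Eif4g2 311 and 365. Of 28 genes of ribosome biogenesis, 2 were past 2-fold upward and 8 downward, with a median of -0.28, and among them Ncl had 276 and 370 CPM, Npm1 201 and 191 and Nop56 207 and 169. The 78 genes of the mitochondrial ribosome had a median of -0.11, 2 of 77 past 2-fold upward and 8 downward, and their most abundant were Mrpl12 (143 and 177 CPM), Mrpl4 (166 and 137) and Mrpl9 (147 and 78.8).

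Of the proteins of the ribosome with other names, Fau, a fusion of a ubiquitin-like protein with a small subunit protein, had 446 and 495 CPM (log2 ratio of 0.15). Rack1, a scaffold on the small subunit, had 496 and 515 CPM (0.06).

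Growth signals upstream of the ribosome were read from few cells. Myc, which drives ribosome production, had 216 CPM in untreated and 80.6 in treated cells (log2 ratio of -1.41), with reads in 12.7% and 5.00% of cells. Mtor had 36.7 and 17.1 CPM (-1.06) and Rptor 67.0 and 25.1 (-1.38). Eif4ebp1 (20.4 and 67.5 CPM, 1.68) and Larp1 (1.81 and 17.9 CPM, 2.75) were higher, although Larp1 had reads in 3.53% of untreated and 2.14% of treated cells, and Rheb (-0.18), Rps6kb1 (-0.50) and Eif4ebp2 (-0.10) were lower by less than 2-fold. Each of these 8 genes had reads in at most 12.7% of the cells of a group. Of the 7 snoRNA host genes, whose RNAs share the terminal tract with the ribosomal proteins, Gas5 had 103 and 74.9 CPM (-0.46), Snhg1 9.57 and 4.42, Snhg5 39.7 and 3.24, and Snhg8 12.3 and 14.1; Snhg12 had 4.30 and 3.32, Snhg6 1.05 and 0.428 and Snhg3 0.0112 and 0.102 CPM.

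DNA methylation was read from the bisulfite tables, with 1 value per cytosine and group and no depth. The DNA came from other animals than the single cells: the mice were older in both groups, and the untreated ones were female, so these values and the CPM are not from the same mice. Of the 86 members, 4 (4.65%) had a region called by the authors in the gene or within 2 kb of its start, against 6.27% of all protein-coding genes, whose median length is 17.3 kb against 3.33 kb for the members. Within 2 kb of the start it was 3 members (3.49%), against 0.867%. All 4 regions lie in the gene and overlap its coding exons, those of Rpl27a and Rpl41 also an untranslated part, and were called for a difference, so that their direction is no independent result.

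For each of these regions the CpG with the largest difference is printed with 30 bases of the plus strand (GRCm38.p6), the CpG in capitals.

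Rplp0 (chr5:115560936-115560965): gggaacgtgggcttCGtgttcaccaaggag

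Rpl27a (chr7:109521895-109521924): aattcctacatcccCGtgtgtattggtctt

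Rpsa (chr9:120129464-120129493): ctgggctttgtgccCGcgcctgcatattcc

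Rpl41 (chr10:128548258-128548287): tcgcggcgaggtgaCGttccaggtctactg

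The region in Rplp0 (chr5:115560839-115561270) was methylated at 77.1% ± 11.7 in untreated and 53.5% ± 15.3 in treated mice (mean ± SD over 34 CpG cytosines, which share reads and are not replicates), and the printed CpG at 75% and 29%. In Rpl27a (chr7:109521651-109522116, 10 cytosines) it was 85.3% ± 8.30 and 58.3% ± 6.33. In Rpsa (chr9:120128875-120129481, 30 cytosines) it was 46.4% ± 15.1 and 24.4% ± 10.4. In Rpl41 (chr10:128548197-128548422, 28 cytosines) it was 45.4% ± 11.2 and 32.3% ± 11.1, with 21 cytosines lower and 5 higher. The summed CPM of these 4 genes moved to different sides, with log2 ratios of -0.03 for Rplp0, -0.13 for Rpl27a, 0.22 for Rpsa and 0.20 for Rpl41. By number in the cell names, Rpl41 gave -0.012 and 0.56.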

How the data were processed

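SmartSeq2 count values were used as deposited: the authors' tallies of reads by gene, made with STAR on GRCm38 and not scaled. How reads on several genes were handled is not given in the sources used here. Gene IDs were matched without version to GENCODE M21 (55141 of 55401). The numbers of chromatin fragments are count values deposited by the authors after Cell Ranger ARC; each end is an insertion, and all barcodes were used. Methylation fraction values (mapped with BSMAP, 1 column per group) were deposited by the authors as methylated over all reads, to 2 decimals; CpG cytosines were picked from the genome. The authors' columns of region differences and q-values were not used. Other sample types of the series were not analysed here.

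Counts were summed per group and scaled to CPM (python 3.11.15, pandas 2.3.3); the log2 ratio takes a prior of 1 CPM and was tested on simulated counts. Members and gene lists were chosen with earlier results of these data known. Named genes were the 10 most abundant members, the 5 highest and 5 lowest ratios of well detected members in both comparisons, paralogs, members with known roles, and the genes of short lists (3 of longer ones); others were named after their values were seen. Some genes that this rule names are not reported here. Alternatives included the cells the study kept (its filter read ribosomal content), edgeR 4.0.16 TMM factors, other filters, and each number in the cell names alone.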

Additional observations from a re-analysis of the deposited data

How the results depend on the processing

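The summed log2 ratio (-0.15) stayed under 0 in all 12 alternatives, from -0.20 to -0.045. It was -0.13 in the cells kept by the study, -0.20 in cells numbered 1, -0.045 in cells numbered 2, -0.17 with TMM, -0.20 with median of ratios, -0.16 as a mean over cells, -0.14 without paralogs and Rps19bp1, -0.17 without the rRNA gene and -0.15 in cells picked by markers (T cell marker reads, and fewer than 10 counts of the markers of other cells except plasma cells). Members past 2-fold upward (1) were 2 in cells numbered 1, 3 in cells numbered 2, 0 at 500 summed counts, 0 with a prior of 5 CPM, 2 at 1.5-fold and 0 without the highest cell of each group per gene. Members past 2-fold downward (2) were 4 in cells numbered 2, 1 with that prior, 7 at 1.5-fold and 1 without the highest cells. The 20.1% and 15.9% of all genes given above belong to the main setting. The shares in the alternatives are not given here, so these counts cannot be set against all genes. Members lower by any amount (65) ranged from 49 to 70. There were 70 in cells numbered 1, 49 in cells numbered 2 and 57 in the cells kept by the study. The share of all genes is not given for these either. The difference of median shares (-0.17 points) was -0.26 in cells numbered 1, -0.024 in cells numbered 2, -0.23 without the rRNA gene and -0.24 in cells picked by markers. The difference between treated cells with and without Il10, Il21 or Lag3 (0.15 points) was 0.21 in the cells kept by the study, 0.21 in cells numbered 2, 0.24 for Il10 alone, 0.10 without the rRNA gene, and turned to -0.063 for Lag3 alone. Rpl36al turned to 0.049 in cells numbered 2. The causes were not tested. The alternatives without the rRNA gene, in cells picked by markers and without the highest cells were chosen after seeing the data. No paired analysis was possible because each group is 1 sample. PCR copies were not collapsed, and depth gives no error between mice.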
